A study of Homo sapiens with 60 samples.

Results

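The genes described here are 37 genes of mitosis and the spindle, read in A549 cells 24 h after the start of treatment with ethanol extracts of medicinal herbs or herbal formulas. They were taken by a list of symbols from the 60675 gene IDs of the count table, and all 37 were found once and passed the filter on low counts that left 18396 genes. A549 is an established human lung carcinoma line. The treated groups were 4 single herbs and 4 formulas, each at a low, a medium and a high dose. The doses of Polygalae Radix (root of Polygala) were 15.2, 76 and 380 µg/mL, and those of Aucklandiae Radix (root of Aucklandia) were 14.8, 74 and 370 µg/mL, with 2 libraries each. For Menthae Herba (mint herb), Saposhnikoviae Radix (root of Saposhnikovia) and the formulas Guibi-tang and Saengmaek-san the doses were 20, 100 and 500 µg/mL, each with 3 libraries. The formulas Soyo-san (2 libraries a dose) and Okbyeongpung-san (1 library a dose) had the same 3 doses. The reference was vehicle with 3 libraries, labelled as 0.1% DMSO, whereas the series' design text gives 2%. The same text says that an extract with an IC20 (a concentration set by its inhibition of the cells) under 500 µg/mL was used at that concentration and at dilutions of it, which is the scheme that the doses of Polygalae Radix and Aucklandiae Radix follow. The extracts are mixtures, and the labels name no single compound in them.

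Mitosis begins when CDK1, bound to cyclin A or B, is switched on by CDC25 phosphatases. Aurora and Polo kinases then build the spindle, kinetochores attach chromosomes to it, and a checkpoint made of BUB1, BUB1B and TTK holds the anaphase-promoting complex (APC/C) back until every chromosome is attached. CDC20 then activates the APC/C, securin is destroyed, the chromosomes part, and kinesins, anillin and CEP55 divide the cell. The genes of these proteins are transcribed together late in the cell cycle. In human cells their promoters often hold a CHR element (cell cycle genes homology region), which is bound by the MuvB core shared by the repressive DREAM complex and the activating MYB-MuvB and FOXM1-MuvB complexes, and CCAAT boxes bound by NF-Y. In bulk RNA, fewer cells in mitosis and less of each RNA per cell cannot be told apart.

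Promoters of 31 of the 37 genes, 37 promoters in all, were matched in a RefSeq table (GRCh38.p14) that holds 250 bases before and 50 bases after each gene start. The letters TTTGAA or TTCGAA, searched on both strands as the CHR element, were present in 24 of the 31 genes and in 70.27% of their promoters, against 16.35% of all 35116 promoters of the table. The letters CCAAT, on both strands, were present in 25 of the 31 genes and in 78.38% of their promoters, against 34.61% of all promoters. Letters of an E2F site (TTCCCGC or TTGGCGC or TTGCCGC or TTCGCGC, both strands) were present in 9 of the 31 genes and in 29.73% of their promoters, against 12.97% of all. The CHR and CCAAT letters can share bases where they meet, and 20 of the 31 genes held both. CENPE and KIF2C held none of the 3. A match describes letters, not a bound site.
The promoters of 4 genes are shown because their genes stand for the patterns of the results, and capitals mark the letters of the 3 motifs. CDC20 (chr1:43358731-43359030, plus strand) and TOP2A (chr17:40417847-40418146, minus strand) were lower at the high dose of both Polygalae Radix and Aucklandiae Radix and fell further with Polygalae Radix. PLK1 (chr16:23678639-23678938, plus strand) fell with both extracts and was not called different between them. CENPA (chr2:26785806-26786105, plus strand) fell with Aucklandiae Radix and was not called with Polygalae Radix.
CDC20: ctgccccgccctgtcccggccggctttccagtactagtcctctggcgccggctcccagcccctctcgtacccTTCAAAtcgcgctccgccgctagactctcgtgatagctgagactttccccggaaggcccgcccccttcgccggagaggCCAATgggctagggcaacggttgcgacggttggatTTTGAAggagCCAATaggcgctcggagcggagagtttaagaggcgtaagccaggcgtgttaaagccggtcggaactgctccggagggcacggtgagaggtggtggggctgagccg
TOP2A: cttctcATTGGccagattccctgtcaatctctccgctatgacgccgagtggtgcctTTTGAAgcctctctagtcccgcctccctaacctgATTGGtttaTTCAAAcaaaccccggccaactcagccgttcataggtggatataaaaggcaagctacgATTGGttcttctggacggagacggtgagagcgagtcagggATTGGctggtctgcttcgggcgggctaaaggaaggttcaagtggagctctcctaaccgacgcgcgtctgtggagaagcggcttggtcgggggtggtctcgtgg
PLK1: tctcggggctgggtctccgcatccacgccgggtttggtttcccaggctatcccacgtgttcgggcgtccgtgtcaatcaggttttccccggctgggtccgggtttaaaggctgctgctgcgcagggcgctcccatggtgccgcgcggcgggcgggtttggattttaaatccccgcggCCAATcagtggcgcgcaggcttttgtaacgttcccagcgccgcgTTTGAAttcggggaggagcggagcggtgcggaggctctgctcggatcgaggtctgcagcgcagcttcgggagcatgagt
CENPA: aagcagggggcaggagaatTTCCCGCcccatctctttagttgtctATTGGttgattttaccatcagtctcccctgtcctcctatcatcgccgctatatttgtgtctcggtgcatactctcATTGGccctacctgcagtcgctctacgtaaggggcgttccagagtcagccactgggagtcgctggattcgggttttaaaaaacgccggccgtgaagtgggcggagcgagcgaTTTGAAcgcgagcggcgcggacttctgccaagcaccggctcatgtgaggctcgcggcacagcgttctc
In these windows CDC20 held 2 CHR matches and 2 CCAAT boxes, TOP2A 2 CHR matches and 4 CCAAT boxes, PLK1 1 of each, and CENPA 1 CHR match, 2 CCAAT boxes and 1 E2F match.

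**Figure D1:**
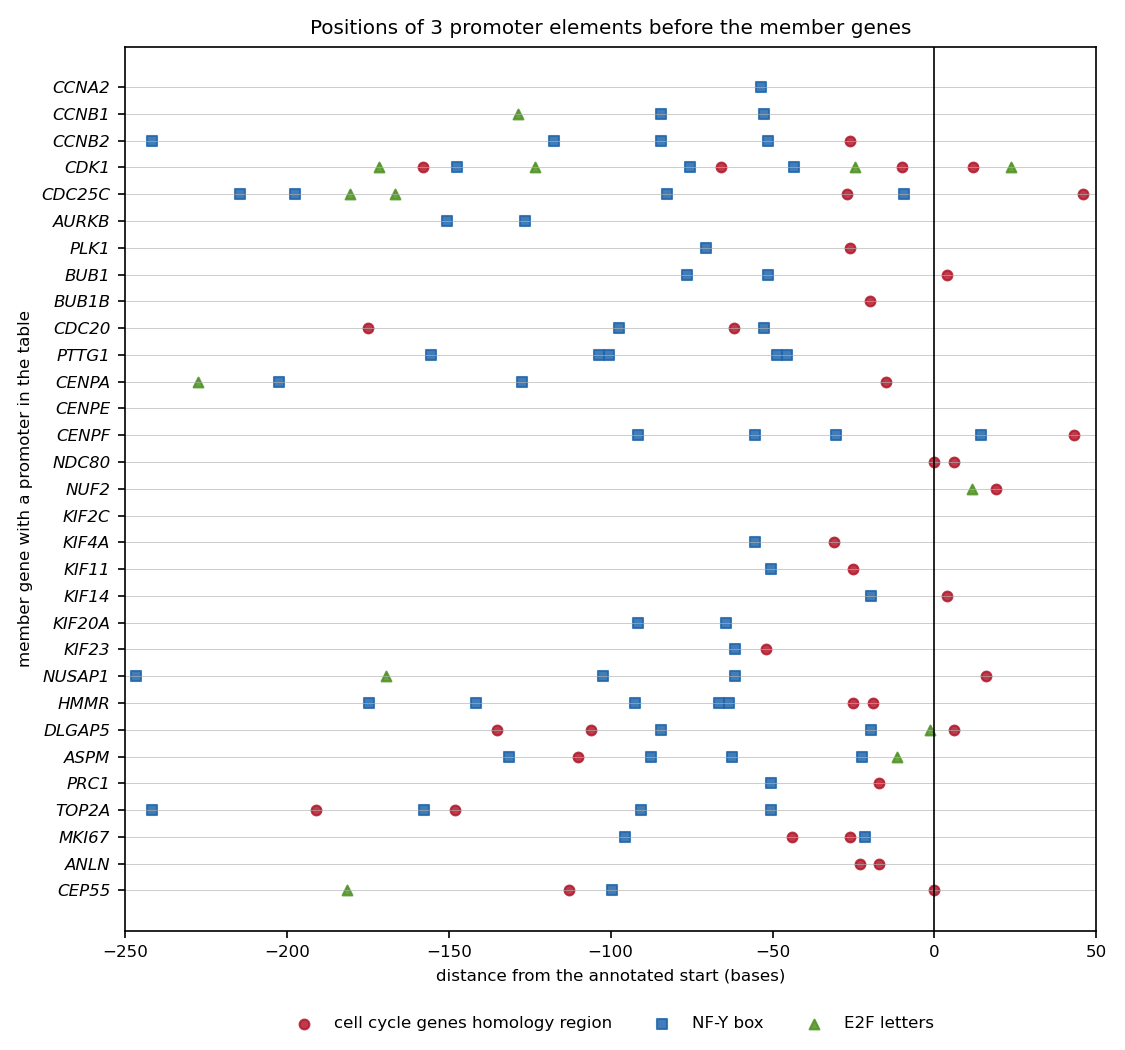
Positions of CHR letters, CCAAT boxes and E2F letters in the promoters of the 31 matched genes, 1 row per gene, with distance from the gene start in bases on the x axis (250 before to 50 after). Within 100 bases before and 50 bases after the start, 22 genes hold CHR letters, 22 a CCAAT box and 4 E2F letters.

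The 60 libraries held 17113924 to 33363642 assigned counts. They fell into 2 kinds by a gene without a symbol, ENSG00000282955, which lay at 3.498 CPM (counts scaled to a common library total) or less in 38 libraries (class 1) and at 17.64 CPM or more in 22 (class 2). All vehicle, Soyo-san and Okbyeongpung-san libraries were of class 2, whereas Menthae Herba and Aucklandiae Radix had class 1 libraries at every dose. Of the 2 libraries of Polygalae Radix at its high dose, replicate 2 was of class 2 and replicate 3 of class 1, and both low-dose libraries were of class 1. Within groups that held both kinds, 22 of the 37 genes were higher and 5 lower in class 2 than in class 1 (edgeR adjusted p under 0.05), with a median log2 difference of 0.09, against 25.0% of all tested genes higher and 23.0% lower. PLK1 differed by 0.34, FOXM1 by 0.31 and KIF20A by 0.27 (log2, class 2 minus class 1), and CDK1 by -0.30. The vehicle libraries also form a library set of their own in the labels, while the other sets hold 2 extracts each. Extract against vehicle therefore cannot be told apart from library set, and the high against the low dose within an extract is given first. Whether replicates came from separate cultures is not in the labels, and the p-values rest on the spread from library to library, which may be technical. That spread was shared over the 22 groups fitted, and it may be too small for groups whose libraries differ more. Between replicates of Polygalae Radix the chi-square per degree of freedom (larger where 2 libraries differ more) was 90.3 at the high and 119.3 at the medium dose. For Aucklandiae Radix it was 3.62 and 2.67. Between the low-dose replicates it was 10.1 for Polygalae Radix and 9.77 for Aucklandiae Radix.

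The line's identity was checked against markers. All 8 markers of lung carcinoma epithelium passed the filter, as did 3 of 6 leukocyte, 4 of 5 fibroblast and 0 of 4 endothelial markers. Passing alone thus did not tell the cell types apart. The summed level had a median of 18603 CPM for the epithelial, 36.1 for the fibroblast and 11.6 for the leukocyte markers. The 4 endothelial markers together reached at most 0.401 CPM. Of the leukocyte markers CD3E was at 0 in all 60 libraries, PTPRC in 55 and LYZ in 29. CD14 and CD68 had counts in every library, with medians of 2.89 and 8.47 CPM, the second above that of the epithelial marker EPCAM (5.05 CPM). Of the 5 fibroblast markers DCN was at 0 in 44 libraries, and COL1A1 was the highest, with a median of 30.3 CPM. CDKN2A, a CDK inhibitor gene known to be deleted in A549, was at 0 in 50 libraries and at most at 0.226 CPM elsewhere.

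In vehicle cells the level per length (CPM per kilobase of exon, mean ± SD, n = 3) was highest for TOP2A, the topoisomerase that untangles sister chromatids, at 160.2 ± 2.90. TPX2, a spindle assembly factor that activates Aurora A, followed at 83.1 ± 2.01, then CCNB1 (cyclin B1) at 80.2 ± 1.35 and CDC20 at 75.4 ± 0.507. The lowest were CDC25C, the phosphatase that switches on CDK1, at 4.91 ± 0.201 and NDC80, the kinetochore's microtubule coupler, at 4.18 ± 0.254. TOP2A stood apart from the rest, while the ranges of TPX2 and CCNB1 over the vehicle libraries overlapped (80.8 to 84.4 and 79.1 to 81.7 CPM per kilobase).

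Of the 7 extracts with replicates, Aucklandiae Radix and Polygalae Radix lowered most of the 37 genes at the high dose relative to the low dose, and the other 5 moved 4 genes or fewer. Summed over the 37 genes, the RNA stood at 3328 and 3349 CPM in the high-dose libraries of Aucklandiae Radix, against 5455 and 5838 CPM at its low dose. It stood at 3442 and 3491 CPM in the high-dose libraries of Polygalae Radix, against 5675 and 5855 CPM at its low dose. The sums at the 2 high doses were thus close, while the genes that made them up differed. In every other group, vehicle included, the sum lay between 4939 and 6556 CPM. With Aucklandiae Radix all 37 genes were lower and none higher (edgeR adjusted p under 0.05), with a median log2 fold change of -0.73, against 9.33% of all tested genes lower, 9.12% higher and a median of 0.01. With Polygalae Radix 28 were lower and 1 higher, with a median of -0.73, against 29.1% of all tested genes lower, 27.9% higher and a median of 0.04.

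**Figure D2:**
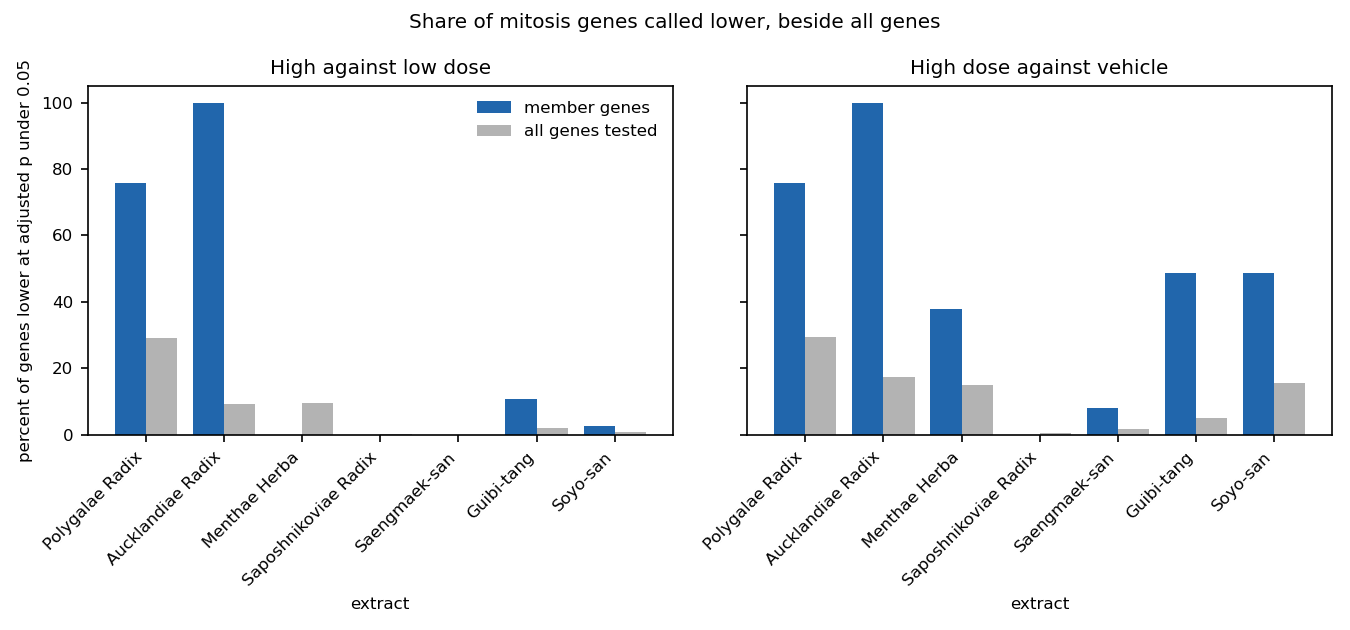
Percentage of the 37 genes called lower (edgeR adjusted p under 0.05) beside the percentage of all tested genes called lower, for 7 extracts, at the high against the low dose (left) and at the high dose against vehicle (right). Aucklandiae Radix (37 of 37) and Polygalae Radix (28 of 37) stand above the other extracts at the high against the low dose.

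**Figure D3:**
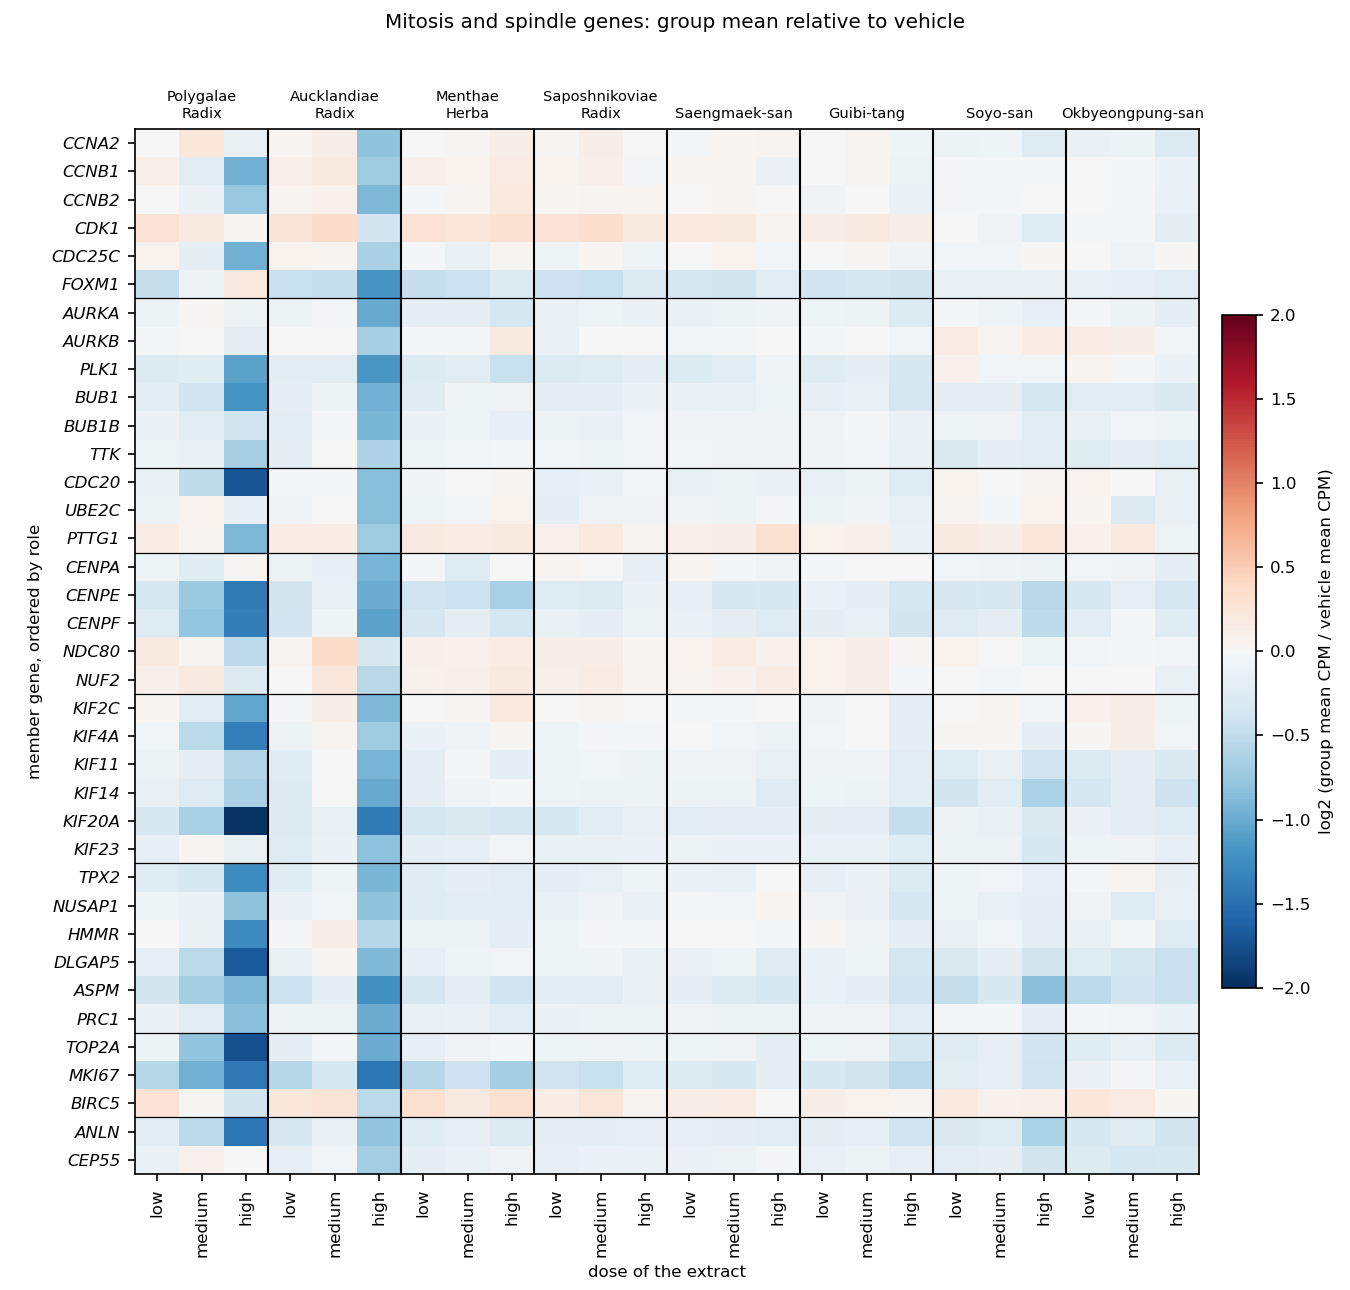
Log2 ratio of each group's mean CPM to the vehicle mean for the 37 genes (rows, ordered by role) in the 8 extracts at the low, medium and high dose (columns). The high-dose columns of Polygalae Radix and Aucklandiae Radix are the lowest, and FOXM1, AURKA and CENPA stay near vehicle with Polygalae Radix.

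With Aucklandiae Radix the fall was close to even across roles: the log2 fold changes of high against low dose ran from -1.12 to -0.39, with an interquartile range of 0.18. Both high-dose libraries lay below both low-dose libraries for each of the 37 genes. How many of all tested genes parted in this way was not counted. Among the 6 entry genes CCNB1 had 123 and 126 CPM at the high dose, against 225 and 217 CPM at the low dose, a log2 fold change of -0.82 ± 0.10 (edgeR adjusted p = 2.05e-08). CCNB2, the other mitotic cyclin B, had 61.5 and 60.1 CPM at the high dose, against 115 and 120.0 CPM at the low dose, and fell by 48.2% (-0.95 ± 0.06 (edgeR adjusted p = 2.78e-15)). The high-dose libraries agreed closely for both cyclins and lay far below the low-dose pair. CCNA2, CDC25C, CDK1 and the transcription factor FOXM1 had log2 fold changes of -0.84, -0.73, -0.64 and -0.73.

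All 6 mitotic and checkpoint kinase genes fell with Aucklandiae Radix. PLK1, which drives centrosome maturation and spindle assembly, had 96.3 and 97.5 CPM at the high dose, against 182 and 189 CPM at the low dose, a log2 fold change of -0.94 ± 0.14 (edgeR adjusted p = 3.49e-06). AURKA (Aurora A, the spindle pole kinase) had 82.3 and 84.0 CPM at the high dose, against 159 and 154 CPM at the low dose, a log2 fold change of -0.91 ± 0.08 (edgeR adjusted p = 8.31e-12). Replicates of each dose were close for both kinases. TTK (the checkpoint kinase MPS1) changed least among the kinases, by -0.43 ± 0.08 (edgeR adjusted p = 7.88e-05) on the log2 scale. The 3 genes of APC/C activation and exit fell: CDC20 had 83.5 and 86.4 CPM at the high dose, against 153 and 147 CPM at the low dose (-0.82 ± 0.09 (edgeR adjusted p = 4.59e-09)), and PTTG1 (securin) and UBE2C (the E2 enzyme of the APC/C) had log2 fold changes of -0.87 and -0.78. PTTG1 has near-identical copies in the genome, so how its reads were split between them is uncertain.

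The 5 kinetochore genes fell with Aucklandiae Radix by less than the kinases on median (-0.62 against -0.74, log2). CENPF, a large outer kinetochore protein, had 181 and 178 CPM at the high dose, against 249 and 332 CPM at the low dose (-0.69 ± 0.14 (edgeR adjusted p = 2.05e-04)), and its low-dose libraries differed from each other. NDC80 changed least of the 37 genes, with 11.3 and 12.7 CPM at the high dose, against 15.1 and 16.3 CPM at the low dose (-0.39 ± 0.10 (edgeR adjusted p = 0.0035)). It did not pass without high-dose replicate 2 (-0.31) or low-dose replicate 3 (-0.33), and CENPE, a kinetochore motor, at -0.62, did not pass without high-dose replicate 3 (-0.58) or low-dose replicate 3 (-0.49). The other 35 genes passed in each fit that left out 1 library. All 6 kinesin genes fell. KIF20A, the kinesin that carries the chromosomal passenger complex to the midzone, had 33.6 and 37.0 CPM at the high dose, against 78.0 and 75.9 CPM at the low dose. It fell most of the 37, by 54.1% (-1.12 ± 0.13 (edgeR adjusted p = 5.46e-09)). All 6 spindle-associated genes and both cytokinesis genes also fell, by medians of -0.71 and -0.50.

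The 3 chromosome-associated genes fell with Aucklandiae Radix. MKI67 (Ki-67, which coats mitotic chromosomes and marks cycling cells) had 323 and 294 CPM at the high dose, against 499.9 and 629 CPM at the low dose (-0.87 ± 0.15 (edgeR adjusted p = 2.30e-05)). TOP2A had 517 and 526 CPM at the high dose, against 873 and 952 CPM at the low dose (-0.81 ± 0.07 (edgeR adjusted p = 4.69e-12)). For both genes the 2 doses did not overlap, and the low-dose libraries lay farther apart than the high-dose ones.

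The medium dose of Aucklandiae Radix did not lower these genes. Of the 37, 0 passed the threshold against the low dose by edgeR and 0 by the DESeq2 Wald test. Over all tested genes edgeR called 0.00544% lower and 0% higher. An unadjusted edgeR p under 0.05 was found for 12 of the 37, against 775 of all 18396 tested genes. A positive log2 fold change was found for 33 of the 37, and their median was 0.13. At the medium dose MKI67 had 668 and 639.9 CPM and TOP2A had 1023 and 1007 CPM, so that all 4 values at 74 µg/mL lay above those at 14.8 µg/mL. CCNB1, PLK1, CDC20 and CENPF had log2 fold changes of 0.07, 0.01, 0.00 and 0.29 at the medium against the low dose. Against vehicle, all 37 genes were lower at the high dose, with a median log2 fold change of -0.88, against 17.3% of all tested genes lower and 18.5% higher. The largest differences there were MKI67 at -1.44 ± 0.14 (edgeR adjusted p = 1.35e-10), KIF20A at -1.40, ASPM, a spindle pole protein, at -1.21 and FOXM1 at -1.17. PLK1, CENPF, TOP2A, CDC20 and CCNB1 differed by -1.16, -1.08, -0.98, -0.85 and -0.72. The smallest were CDK1 at -0.38 ± 0.14 (edgeR adjusted p = 0.0277) and NDC80 at -0.32 ± 0.09 (edgeR adjusted p = 0.00437). CDK1 did not pass without vehicle replicate 1, without vehicle replicate 3 (-0.37 each), without high-dose replicate 2 (-0.35) or without high-dose replicate 3 (-0.40), and NDC80 did not without high-dose replicate 2 (-0.25).

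**Figure D4:**
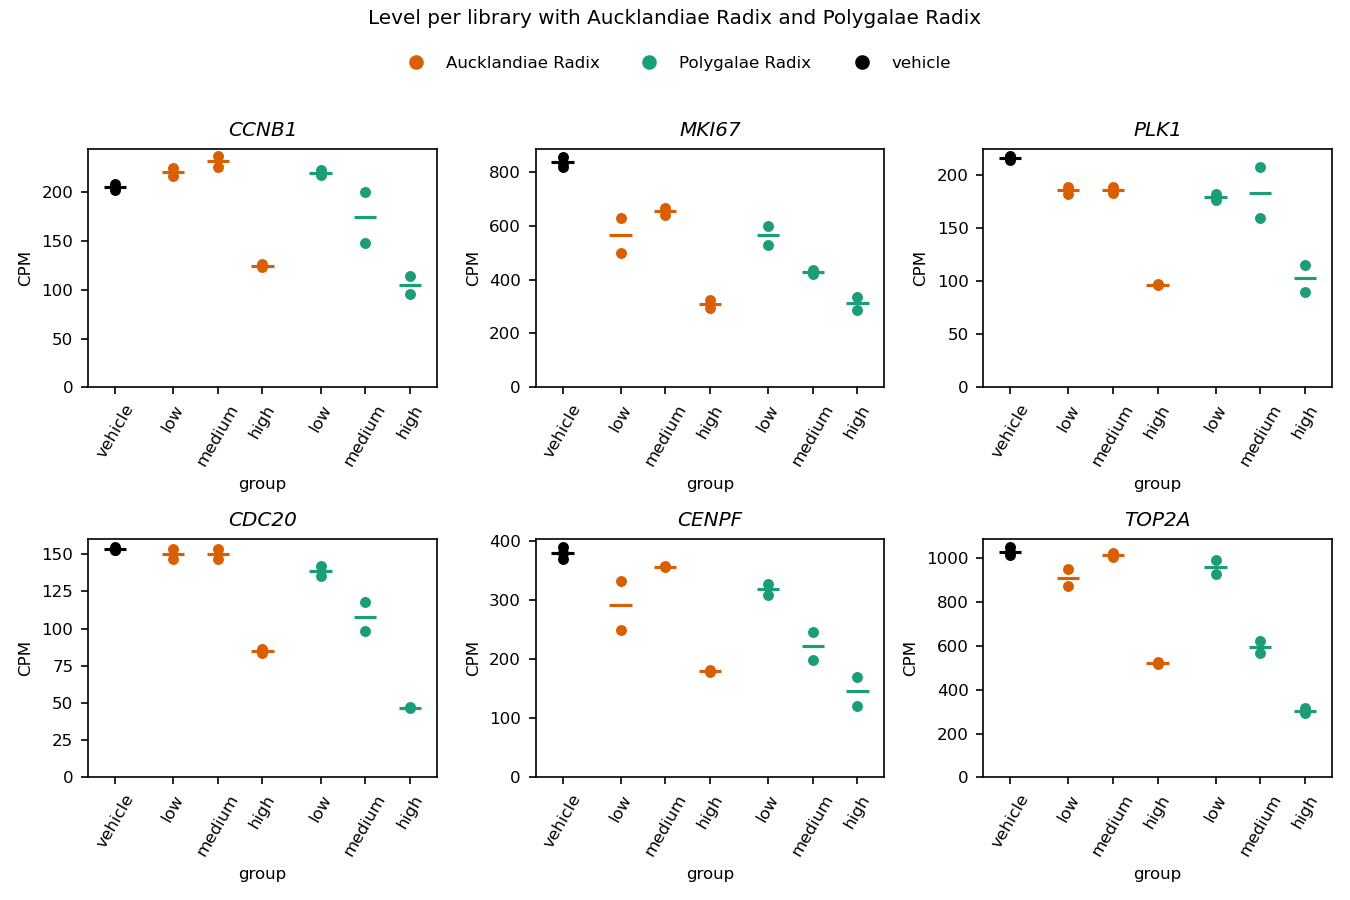
CPM of CCNB1, MKI67, PLK1, CDC20, CENPF and TOP2A in each library of vehicle and of Aucklandiae Radix and Polygalae Radix at the low, medium and high dose, 1 point per library. With Aucklandiae Radix the values drop at the high dose, and with Polygalae Radix CENPF, TOP2A, CDC20, CCNB1 and MKI67 have medium-dose values below both low-dose values.

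With Polygalae Radix the genes parted. The log2 fold changes of high against low dose ran from -1.67 to 0.67 with an interquartile range of 0.79. Both high-dose libraries lay below both low-dose libraries for 28 of the 37 genes. How many of all tested genes parted so was again not counted. The largest falls were in KIF20A, TOP2A, CDC20 and DLGAP5, a protein that stabilises spindle fibres. KIF20A had 27.6 and 19.8 CPM at the high dose, against 75.5 and 74.7 CPM at the low dose, and fell by 68.7% (-1.67 ± 0.13 (edgeR adjusted p = 2.05e-14)). TOP2A had 292 and 318 CPM at the high dose, against 931 and 994 CPM at the low dose, and fell by 68.3% (-1.66 ± 0.07 (edgeR adjusted p = 5.93e-23)). CDC20 had 46.6 and 47.3 CPM at the high dose, against 135 and 142 CPM at the low dose (-1.56 ± 0.09 (edgeR adjusted p = 6.39e-18)). For these 3 genes the high-dose values were well under those of the low dose in both libraries. DLGAP5 had 27.4 and 26.7 CPM at the high dose, against 73.8 and 79.4 CPM at the low dose (-1.50 ± 0.07 (edgeR adjusted p = 2.57e-22)).

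Of the 6 entry genes 3 fell with Polygalae Radix. CCNB1 had 96.1 and 114 CPM at the high dose, against 223 and 218 CPM at the low dose (-1.07 ± 0.10 (edgeR adjusted p = 2.73e-12)), and CDC25C and CCNB2 had log2 fold changes of -1.04 and -0.78. CCNA2 had 86.3 and 82.2 CPM at the high dose, against 84.4 and 99.9 CPM at the low dose (-0.13 ± 0.07 (edgeR adjusted p = 0.117)), and did not pass. FOXM1 was the single gene of the 37 that rose, with 362 and 247 CPM at the high dose, against 193 and 189.7 CPM at the low dose (0.67 ± 0.14 (edgeR adjusted p = 5.13e-05)). Both FOXM1 high-dose values exceeded both low-dose values, and the higher of them came from the class 2 library. Within class 1 the FOXM1 difference was 0.37 (edgeR adjusted p = 1.12e-05, 1 library against 2), without high-dose replicate 2 it was 0.36 (edgeR adjusted p = 0.0392) and without high-dose replicate 3 it was 0.90. CDK1 had 86.7 and 130.5 CPM at the high dose, against 125 and 136 CPM at the low dose (-0.26 ± 0.15 (edgeR adjusted p = 0.128)). It was not called, but without the class 1 library of the high dose it differed by -0.61 (edgeR adjusted p = 0.00264) and within class 1 it was again not called (edgeR adjusted p = 0.991).

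Of the 6 kinase genes 4 fell with Polygalae Radix. PLK1 had 116 and 90.4 CPM at the high dose, against 182 and 177 CPM at the low dose (-0.80 ± 0.14 (edgeR adjusted p = 7.86e-06)), and the checkpoint kinases BUB1 and TTK had log2 fold changes of -0.997 and -0.57. BUB1B, the checkpoint protein BubR1, had the smallest fall that passed, with 57.7 and 54.4 CPM at the high dose, against 67.1 and 69.2 CPM at the low dose (-0.28 ± 0.06 (edgeR adjusted p = 2.24e-04)). The 2 Aurora kinase genes were not called. AURKA had 166 and 148 CPM at the high dose, against 154 and 159 CPM at the low dose (0.00 ± 0.08 (edgeR adjusted p = 0.972)), and AURKB, the kinase of the chromosomal passenger complex, 101 and 77.9 against 100.4 and 96.1 CPM (-0.14 ± 0.10 (edgeR adjusted p = 0.219)). The AURKA values of the 2 doses overlapped. Of the exit genes, PTTG1 fell with CDC20 (-1.05), while UBE2C had 80.1 and 69.6 CPM at the high dose, against 75.2 and 82.4 CPM at the low dose, and was not called (edgeR adjusted p = 0.582).

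Of the 5 kinetochore genes 4 fell with Polygalae Radix. CENPF had 120.0 and 170.2 CPM at the high dose, against 308 and 327 CPM at the low dose (-1.13 ± 0.14 (edgeR adjusted p = 4.31e-09)). CENPE, NDC80 and NUF2, partner of NDC80, had log2 fold changes of -1.06, -0.70 and -0.37 ± 0.08 (edgeR adjusted p = 8.95e-05). CENPA, the histone variant that marks the centromere, had 32.3 and 37.0 CPM at the high dose, against 29.3 and 33.6 CPM at the low dose (0.14 ± 0.11 (edgeR adjusted p = 0.281)), and was not called. Among these 5 genes CENPA alone thus did not pass. The wider list of centromere and outer kinetochore genes, given below, had counts near the shares over all genes. Of the 6 kinesin genes 5 fell, with KIF4A, a chromosome-borne kinesin, at -1.31 after KIF20A. KIF2C (a microtubule depolymerase), KIF14 and KIF11 (which pushes spindle poles apart) had log2 fold changes of -1.08, -0.50 and -0.47. KIF14 was at -0.32 and did not pass without high-dose replicate 2, and it was at -0.76 without high-dose replicate 3. KIF23, the centralspindlin kinesin, had 188 and 154 CPM at the high dose, against 163 and 176 CPM at the low dose, with a log2 fold change of 0.01 ± 0.08 (edgeR adjusted p = 0.893), and was not called.

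All 6 spindle-associated genes fell with Polygalae Radix, with a median of -0.87: after DLGAP5 came HMMR at -1.27, TPX2 at -1.01, NUSAP1, a microtubule bundler, at -0.73, PRC1, which bundles the midzone, at -0.72 and ASPM at -0.53. ASPM had 77.0 and 124 CPM at the high dose, against 138 and 154 CPM at the low dose, and did not pass within class 1 (-0.23) or without high-dose replicate 2 (-0.24), while it was at -0.95 without high-dose replicate 3. Apart from ASPM and KIF14, the 27 other genes called, FOXM1 included, passed in each fit that left out 1 library. MKI67 had 287 and 336 CPM at the high dose, against 599 and 529 CPM at the low dose (-0.86 ± 0.15 (edgeR adjusted p = 5.00e-06)), and BIRC5 (survivin, of the chromosomal passenger complex) had a log2 fold change of -0.65. The 2 cytokinesis genes went separate ways. ANLN (anillin, of the cleavage furrow) fell by 1.22 ± 0.08 (edgeR adjusted p = 2.01e-17) on the log2 scale, whereas CEP55, which acts at the last cut between daughter cells, had 146 and 123 CPM at the high dose, against 119 and 127 CPM at the low dose (0.13 ± 0.08 (edgeR adjusted p = 0.172)). Of the 9 genes not lower with Polygalae Radix, AURKB passed as lower within class 1 and without high-dose replicate 2, KIF23 within class 1, and AURKB and UBE2C with class as a covariate. CDK1 passed as lower, and CEP55 as higher, without high-dose replicate 3.

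**Figure D5:**
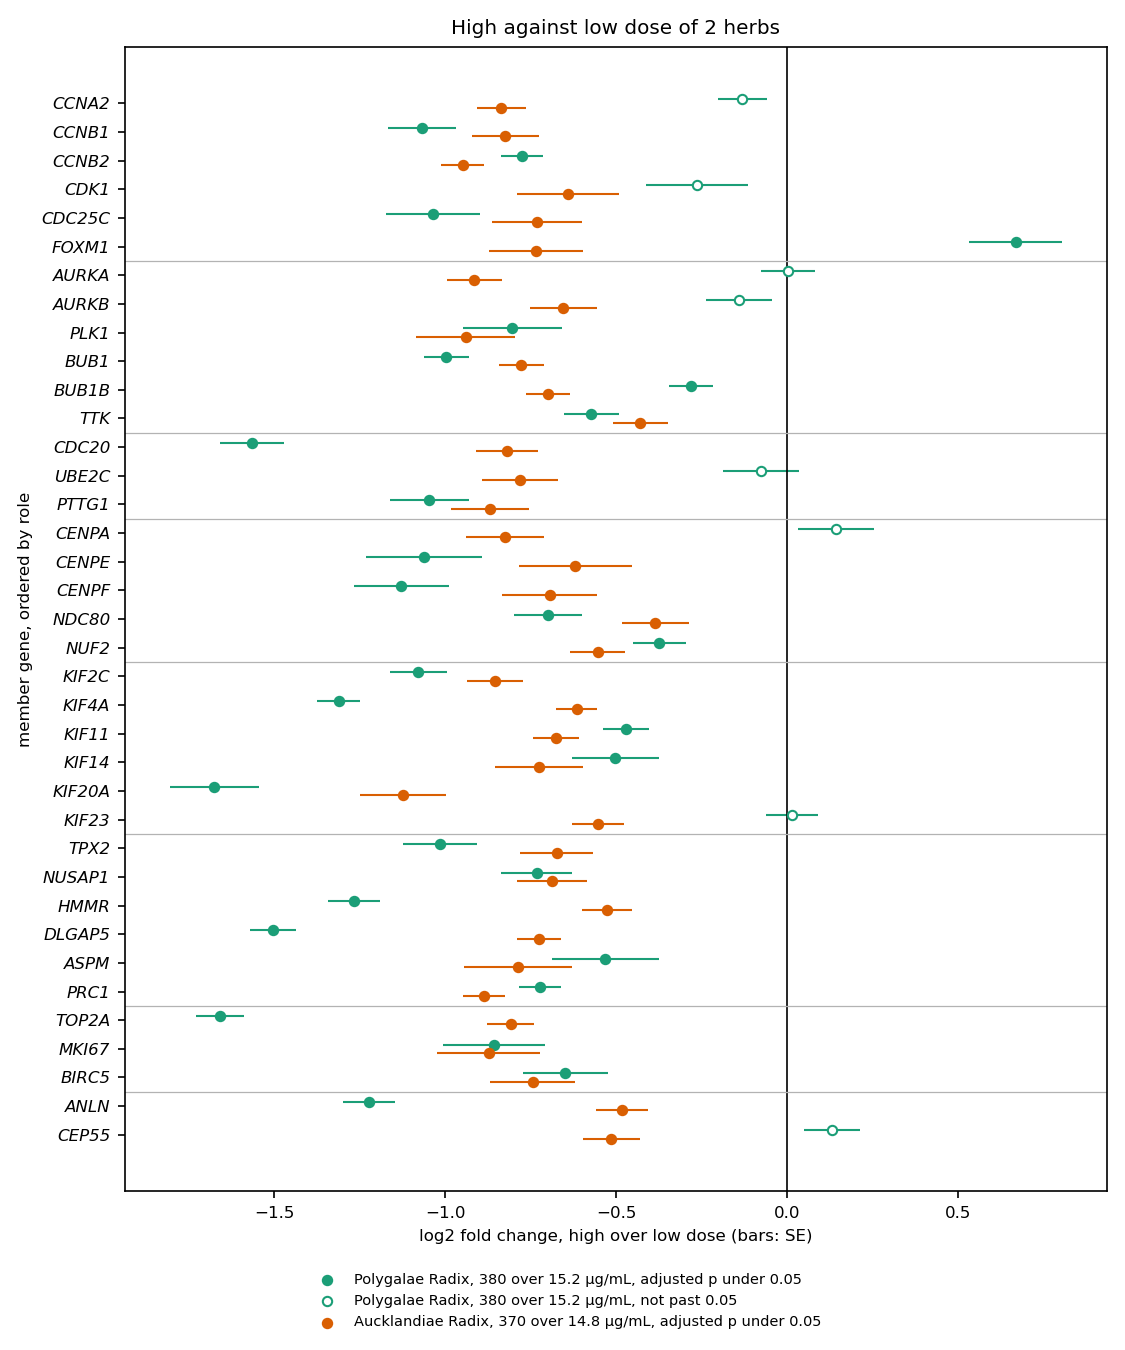
Log2 fold change of high against low dose, with its standard error, of the 37 genes with Polygalae Radix (green, open where adjusted p is 0.05 or above) and Aucklandiae Radix (orange). The orange points lie between -1.12 and -0.39, and the green points between -1.67 and 0.67.

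Polygalae Radix also differed at the medium dose. At 76 µg/mL against 15.2 µg/mL, 8 of the 37 genes were lower and 1 higher, against 6.82% of all tested genes lower and 4.98% higher. The largest falls were in TOP2A, with 568 and 624 CPM at the medium dose, against 931 and 994 CPM at the low dose (-0.69 ± 0.07 (edgeR adjusted p = 5.78e-10)), and in CENPF, with 198 and 245 CPM, against 308 and 327 CPM (-0.52 ± 0.14 (edgeR adjusted p = 0.0092)). KIF4A and CDC20 followed at -0.48 and -0.36, then DLGAP5 at -0.36, with CCNB1 at -0.33 ± 0.10 (edgeR adjusted p = 0.0186). The smallest falls that passed were ANLN at -0.30 and KIF2C at -0.24, and CCNA2 was higher by 0.21 ± 0.07 (edgeR adjusted p = 0.042). MKI67 (-0.40 ± 0.15 (edgeR adjusted p = 0.076)) and PLK1 (0.03 ± 0.14 (edgeR adjusted p = 0.927)) were not called. In the medium-dose pair, replicate 2 was of class 2, and within class 1, with 1 medium-dose library, there were 7 lower and 0 higher. Of these 9 genes, TOP2A, KIF4A and DLGAP5 passed in each fit that left out 1 library. CCNB1 was at -0.14 (edgeR adjusted p = 0.68) without medium-dose replicate 2, at -0.58 without medium-dose replicate 3, and did not pass without either low-dose library. CCNA2 was at 0.16 (edgeR adjusted p = 0.444) without medium-dose replicate 2, at 0.09 (edgeR adjusted p = 0.599) without low-dose replicate 2 and at 0.34 (edgeR adjusted p = 0.00781) without low-dose replicate 3. CDC20, CENPF and KIF2C did not pass without medium-dose replicate 2 (-0.24, -0.37 and -0.18), and ANLN did not without medium-dose replicate 3 (-0.23). Without low-dose replicate 3 there were 3 lower, and 0 passed in either direction when the 4 libraries compared were fitted alone.

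Against vehicle, 28 of the 37 genes were lower and 0 higher at the high dose of Polygalae Radix, with a median log2 fold change of -0.84, against 29.5% of all tested genes lower and 30.1% higher. KIF20A, TOP2A, CDC20 and DLGAP5 again had the largest differences, at -1.99 ± 0.12 (edgeR adjusted p = 1.82e-17), -1.76, -1.71 and -1.67. MKI67, CENPF, PLK1 and CCNB1 differed by -1.43, -1.38, -1.08 and -0.97, and the smallest that passed were BIRC5 at -0.37 ± 0.11 (edgeR adjusted p = 0.00572) and NUF2 at -0.27 ± 0.07 (edgeR adjusted p = 0.00168). BIRC5 was at -0.22 (edgeR adjusted p = 0.198) without high-dose replicate 2 and at -0.57 without high-dose replicate 3, and the other 27 genes passed in each fit that left out 1 library. FOXM1 had 362 and 247 CPM at the high dose, against 267, 269 and 266 CPM in vehicle, and was not called there (0.19 ± 0.12 (edgeR adjusted p = 0.189)). This comparison and the one against the low dose share the high-dose libraries.

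The 2 extracts of this library set were then set against each other at their high doses, which differ (380 µg/mL of Polygalae Radix and 370 µg/mL of Aucklandiae Radix). Of the 37 genes 14 were higher and 11 lower with Polygalae Radix, with a median difference of 0.01 (log2), against 28.1% of all tested genes higher and 29.9% lower. The 11 lower were near the share over all genes. FOXM1 differed most, with 362 and 247 CPM with Polygalae Radix, against 118 and 119.5 CPM with Aucklandiae Radix (1.36 ± 0.14 (edgeR adjusted p = 2.93e-11); 1.06 within class 1). CENPA had 32.3 and 37.0 CPM with Polygalae Radix, against 16.7 and 18.6 CPM with Aucklandiae Radix (0.98 ± 0.12 (edgeR adjusted p = 1.19e-09)). AURKA had 166 and 148 CPM with Polygalae Radix, against 82.3 and 84.0 CPM with Aucklandiae Radix (0.91 ± 0.08 (edgeR adjusted p = 4.40e-13)). For these 3 genes the libraries of the 2 extracts did not overlap. UBE2C, CEP55, CCNA2, KIF23, BUB1B, AURKB, CDK1, KIF14, KIF11 and NUF2 were higher by 0.68, 0.68, 0.67, 0.66, 0.51, 0.48, 0.41, 0.35, 0.34 and 0.29. PRC1 had the smallest difference that passed, at 0.15 ± 0.06 (edgeR adjusted p = 0.033).

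In the other direction CDC20 had 46.6 and 47.3 CPM with Polygalae Radix, against 83.5 and 86.4 CPM with Aucklandiae Radix (-0.86 ± 0.09 (edgeR adjusted p = 2.06e-10)), and TOP2A had 292 and 318 CPM, against 517 and 526 CPM (-0.77 ± 0.07 (edgeR adjusted p = 8.28e-13)). DLGAP5, HMMR, KIF4A, ANLN, KIF20A, CENPE and TPX2 differed by -0.80, -0.70, -0.66, -0.66, -0.59, -0.43 and -0.35, and CCNB1 and BUB1 by -0.25 ± 0.10 (edgeR adjusted p = 0.0296) and -0.24 ± 0.07 (edgeR adjusted p = 0.00216). MKI67 (0.01 ± 0.15 (edgeR adjusted p = 0.942)) and PLK1 (0.09 ± 0.14 (edgeR adjusted p = 0.634)) were not called different, and neither was CENPF (-0.31 ± 0.14 (edgeR adjusted p = 0.0552)). The CCNB1 difference did not pass within class 1 (-0.13) or without the class 2 library of Polygalae Radix (-0.14), and it was -0.40 without the class 1 library. Of the 25 genes 17 passed in each fit that left out 1 library, and PRC1, CDK1, KIF14, NUF2, TPX2, CENPE, CCNB1 and BUB1 did not. CDK1 and KIF14 were at 0.66 and 0.53 without Polygalae Radix replicate 2 and at 0.06 and 0.09, not called, without its replicate 3. TPX2 was at -0.53 without Polygalae Radix replicate 2 and at -0.22, not called, without its replicate 3. PRC1 was at 0.10 without Polygalae Radix replicate 2 and at 0.08 without Aucklandiae Radix replicate 2. AURKB (0.28 without Polygalae Radix replicate 2) and KIF20A (-0.38 without its replicate 3) passed at smaller sizes. All 9 genes that were lower with Aucklandiae Radix and not with Polygalae Radix were higher with Polygalae Radix in this direct comparison, which uses the same high-dose libraries. The 28 genes lower in both against their low doses split into 5 higher, 11 lower and 12 not called. CHR letters were present in 20 of the 25 genes with a matched promoter among those 28, and in 4 of 6 among the other 9. CCAAT boxes were present in 19 of 25 and 6 of 6, and E2F letters in 6 of 25 and 3 of 6. Both groups thus held all 3 motifs.

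Genes of the same pathway outside the 37 were read from lists. With Aucklandiae Radix (high against low dose) 22 of 32 centromere and outer kinetochore genes were lower and 0 higher, with a median log2 fold change of -0.47. The largest changes were in HJURP, the chaperone of CENPA, at -0.83 and ZWINT at -0.72. Of 22 other spindle and cytokinesis genes 21 were lower (median -0.60; FAM83D -0.93, KIF22 -0.90), and of 17 entry kinases, phosphatases and adaptors 12 were lower (median -0.45; CDCA3 -0.89, PBK -0.87). Of 18 condensin and cohesin genes 10 were lower (median -0.41; NCAPH -0.82, NCAPD2 -0.72), and of 24 spindle checkpoint and APC/C genes 9 were lower (median -0.21; ESPL1 -0.72, UBE2S -0.65). In these last 4 lists 0 genes were called higher. The counts stand against 9.33% of all tested genes lower in this comparison.

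With Polygalae Radix the same lists were mixed. Of the 32 centromere and kinetochore genes 9 were lower and 9 higher (median 0.00), with CENPW at -1.34 and PMF1 at -0.95. Of the 22 other spindle genes 9 were lower and 5 higher, with KIF18B, a kinesin of plus ends, at 1.11 and CKAP5 at -0.96. Of the 17 entry genes 6 were lower and 4 higher, with WEE1, the kinase that holds CDK1 inactive, at 1.15 and PBK at -0.75. Of the 18 condensin and cohesin genes 8 were lower and 5 higher, with SMC2 at -1.66 and NCAPD2 at -1.22, and of the 24 checkpoint and APC/C genes 12 were lower and 2 higher, with ANAPC11 at -1.09 and ZW10 at -1.03. The background in this comparison was 29.1% of all tested genes lower and 27.9% higher. Near these shares were the 9 lower and 9 higher of the 32 centromere and kinetochore genes. The 12 genes of tubulins and stathmin, the building blocks of microtubules, were lower in 11 (median -1.51), with TUBA4A at -2.46 and TUBB at -1.95. With Aucklandiae Radix 4 of the 12 were lower and 2 higher, against 9.33% and 9.12% of all tested genes, with TUBA1A at 0.75 and TUBB2A at 0.60.

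Regulators of these genes were read from 2 further lists. CDKN1A, which encodes the CDK inhibitor p21, averaged 49.7 ± 1.12 CPM at the high dose of Polygalae Radix and 88.1 ± 1.35 CPM at its low dose (SD, n = 2 each), a log2 fold change of -0.83 ± 0.07 (edgeR adjusted p = 1.09e-13). It averaged 156 ± 5.31 CPM at the high dose of Aucklandiae Radix and 89.8 ± 0.79 CPM at its low dose (SD, n = 2 each), a log2 fold change of 0.80 ± 0.07 (edgeR adjusted p = 3.01e-12). CDKN1A thus fell with Polygalae Radix and rose with Aucklandiae Radix, and the high doses differed by -1.65 ± 0.07 (edgeR adjusted p = 3.83e-23). The G1 cyclin gene CCND3 fell with both, with log2 fold changes of -0.72 with Polygalae Radix and -0.67 with Aucklandiae Radix. Among 13 tested CDK inhibitor and G1 cyclin genes, 5 were lower and 4 higher with Polygalae Radix, and 5 lower and 2 higher with Aucklandiae Radix. The background was 29.1% of all tested genes lower and 27.9% higher with Polygalae Radix, and 9.33% lower and 9.12% higher with Aucklandiae Radix. Of 15 genes of the DREAM and MYB-MuvB complexes, 1 was lower and 8 higher with Polygalae Radix (E2F5 0.80, LIN52 0.61), and 3 were lower and 1 higher with Aucklandiae Radix. MYBL2, the B-MYB subunit, had a log2 fold change of -0.10 ± 0.14 (edgeR adjusted p = 0.579) with Polygalae Radix and -0.58 ± 0.14 (edgeR adjusted p = 0.00234) with Aucklandiae Radix, where TFDP1 was at -0.34.

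Other features of the libraries moved with these results, in comparisons where 29.1% of all tested genes were lower and 27.9% higher with Polygalae Radix, and 9.33% lower and 9.12% higher with Aucklandiae Radix. The 8 epithelial markers were all lower with Polygalae Radix at high against low dose (median -2.37), with sums of 3201 to 3683 CPM at the high dose, against 19293 to 19756 CPM at the low dose. With Aucklandiae Radix 5 of the 8 were lower (median -0.52), with sums of 12132 to 12375 CPM at the high dose, against 19006 to 19061 CPM at the low dose. The 13 mitochondrially encoded mRNAs summed to 47707 and 124565 CPM in the high-dose libraries of Polygalae Radix, the higher one in the class 2 library, against 55210 and 69070 CPM at the low dose. Leukocyte markers summed to 2.39 to 26.6 CPM and fibroblast markers to 13.6 to 46.7 CPM over all libraries. Of the fibroblast markers 4 of 4 tested were lower with Polygalae Radix and 2 of 4 with Aucklandiae Radix, and of the leukocyte markers 1 of 3 tested was lower with Polygalae Radix and 2 of 3 were higher with Aucklandiae Radix. Their part in the results was not tested.

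With the other extracts few of the 37 genes moved with dose. With Guibi-tang 4 were lower at the high than at the low dose, against 1.97% of all tested genes lower and 0.962% higher. TOP2A had 836, 815 and 785 CPM at the high dose, against 963, 996 and 966 CPM at the low dose (-0.26 ± 0.06 (edgeR adjusted p = 0.00256)), and all 3 high-dose libraries lay below all 3 low-dose libraries. DLGAP5, HMMR and ANLN had log2 fold changes of -0.23, -0.22 and -0.22. CENPF had 301, 302 and 282 CPM at the high dose, against 332, 347 and 321 CPM at the low dose, and MKI67 548, 556 and 626 CPM, against 644, 642 and 755 CPM. Neither passed, nor did CCNB1, PLK1 or CDC20 (log2 fold changes of -0.11, -0.07 and -0.10). The count was 2 without high-dose replicate 1, without high-dose replicate 2 or without low-dose replicate 3, and 1 without low-dose replicate 2, and TOP2A was the 1 gene that passed in each of the 6 fits that left out 1 library. DLGAP5 (-0.20 without low-dose replicate 2 or high-dose replicate 3), HMMR (-0.18 without low-dose replicate 3) and ANLN (-0.23 to -0.20 in the 6 fits, not called in any) did not. Against vehicle 18 were lower, against 5.05% of all tested genes lower and 4.51% higher, with MKI67 at -0.54 ± 0.12 (edgeR adjusted p = 0.00278), KIF20A at -0.47, ANLN at -0.40, ASPM at -0.39 and, smallest, HMMR at -0.20 and KIF4A at -0.18. TOP2A, CENPF and CDC20 had log2 fold changes of -0.35, -0.36 and -0.26, and CCNB1 (-0.11) and PLK1 (-0.31) were not called. That count was 10 without high-dose replicate 1, 11 without vehicle replicate 2 and 9 within class 2, where 1 high-dose library remained. Of the 18 genes 10 passed in each fit that left out 1 library, and ASPM, CENPF, FOXM1, TPX2, CDC20, KIF23, HMMR and KIF4A did not, with log2 fold changes of -0.41 to -0.15 where they did not pass.

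With Soyo-san ANLN was the 1 gene lower at the high than at the low dose, with 151 and 147 CPM at the high dose, against 186 and 192 CPM at the low dose (-0.34 ± 0.08 (edgeR adjusted p = 0.01)), against 0.837% of all tested genes lower and 0.402% higher. It was not called in any fit that left out 1 of the 4 libraries (-0.37 to -0.32). CCNB1, MKI67, PLK1, CDC20, CENPF and TOP2A were not called, with log2 fold changes of 0.01, -0.18, -0.14, -0.03, -0.26 and -0.13. Against vehicle 18 were lower, against 15.6% of all tested genes lower and 13.0% higher. ASPM had 105 and 106 CPM at the high dose, against 193, 182 and 189.8 CPM in vehicle (-0.84 ± 0.15 (edgeR adjusted p = 4.12e-05)), and KIF14, ANLN and CENPE had log2 fold changes of -0.64, -0.63 and -0.56. CENPF and TOP2A had log2 fold changes of -0.52 and -0.38, MKI67 of -0.40 ± 0.14 (edgeR adjusted p = 0.0265), and HMMR and PRC1, the smallest, both of -0.19. CCNB1, PLK1 and CDC20 were not called (-0.03, -0.06 and 0.04). Of the 18 genes 11 passed in each fit that left out 1 library. MKI67 (-0.41 to -0.38), CENPE (-0.52), CCNA2 (-0.22), HMMR (-0.22 to -0.18), KIF4A and PRC1 (-0.15 each) and TTK (-0.21 to -0.11) did not, and TTK was at -0.31 without high-dose replicate 1. All libraries in both comparisons were of class 2.

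For Menthae Herba 3 of the 37 genes were higher at the high than at the low dose and 0 lower (edgeR adjusted p under 0.05). Over all tested genes 6.07% were higher and 9.45% lower, so the 3 were near the share over all genes. The DESeq2 Wald test also called 0 lower. An unadjusted edgeR p under 0.05 was found for 8 of the 37, against 4771 of all 18396 tested genes. The 3 higher genes were CCNB2 at 0.21 ± 0.05 (edgeR adjusted p = 0.0019), KIF2C at 0.20 ± 0.07 (edgeR adjusted p = 0.0267) and BUB1 at 0.17 ± 0.05 (edgeR adjusted p = 0.0202). CCNB2 passed in each fit that left out 1 library, KIF2C did not without 4 of them (0.18 to 0.21) and BUB1 did not without 4 (0.15 to 0.16). MKI67 had 503, 527 and 542 CPM at the high dose, against 612, 649.7 and 437 CPM at the low dose, and 1 low-dose library lay below all 3 of the high dose. CCNB1, PLK1, CDC20, CENPF and TOP2A had log2 fold changes of 0.07, -0.18, 0.08, -0.01 and 0.14. Against vehicle 14 were lower and 5 higher, against 15.0% of all tested genes lower and 14.6% higher, so the 5 higher were near the share over all genes. MKI67, CENPE, PLK1 and ASPM had the largest differences among the 14, at -0.68 ± 0.12 (edgeR adjusted p = 3.75e-05), -0.65, -0.44 and -0.40, and HMMR and BUB1B the smallest, at -0.17 and -0.16. At the low dose the mean of MKI67 was already at a log2 ratio of -0.56 to vehicle. CENPF was at -0.34, and CCNB1 (0.17), CDC20 (0.02) and TOP2A (-0.02) were not called. BIRC5, CDK1, KIF2C, CCNB2 and NUF2 were higher, by 0.31, 0.31, 0.20, 0.19 and 0.19. The Menthae Herba libraries are of class 1 and the vehicle libraries of class 2, and with class as a covariate 8 were lower and 7 higher. Of the 19 genes 7 passed in each fit that left out 1 library (MKI67, CENPE, PLK1, AURKA, ANLN, PRC1 and CCNB2), and where the other 12 did not pass their log2 fold changes were -0.35 to -0.13 for those lower and 0.16 to 0.34 for those higher.

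With Saposhnikoviae Radix 0 of the 37 genes passed at the high against the low dose, against 0.0489% of all tested genes lower and 0.0217% higher, and 0 against vehicle, against 0.451% lower and 0.593% higher. The DESeq2 Wald test also called 0. An unadjusted edgeR p under 0.05 was found for 1 of the 37 at the high against the low dose (699 of all 18396 tested genes). Against vehicle it was found for 7 (2727 of all tested genes). TOP2A had 958, 961 and 1007 CPM at the high dose, against 963, 968 and 990.3 CPM at the low dose, and MKI67 632, 814 and 656 CPM, against 626, 643 and 638 CPM, with the highest MKI67 value in the class 2 library. The log2 fold changes of CCNB1, PLK1, CDC20 and CENPF were -0.09, 0.10, 0.10 and 0.05 at the high against the low dose. Against vehicle the 6 genes followed had log2 fold changes between -0.26 (MKI67) and -0.02 (CCNB1). With Saengmaek-san 0 passed at the high against the low dose by edgeR and by the DESeq2 Wald test. Over all tested genes edgeR called 0.0109% lower and 0.0598% higher. An unadjusted edgeR p under 0.05 was found for 4 of the 37, against 1435 of all 18396 tested genes. CCNB1 there had 157, 198 and 209.8 CPM at the high dose, against 205, 206 and 222 CPM at the low dose, and its first replicate lay below the rest. MKI67 in the same library was the highest of the group (934, 635 and 645 CPM at the high dose, against 696, 679 and 701 CPM at the low dose). PLK1, CDC20, CENPF and TOP2A had log2 fold changes of 0.21, 0.03, -0.12 and -0.11. Against vehicle 3 were lower, against 1.83% of all tested genes lower and 1.96% higher: DLGAP5 at -0.23 ± 0.05 (edgeR adjusted p = 0.00729), ANLN at -0.21 ± 0.06 (edgeR adjusted p = 0.0444) and TOP2A at -0.20 ± 0.06 (edgeR adjusted p = 0.0388). That count was 5 without high-dose replicate 1, 0 without high-dose replicate 3 and 1 without any 1 of the vehicle libraries. ANLN was at -0.33 without high-dose replicate 1 and did not pass without replicate 2 (-0.16), replicate 3 (-0.13) or any 1 vehicle library (-0.22 to -0.18). TOP2A passed in the fit without high-dose replicate 2 and in none of the other 5 (-0.21 to -0.16), and DLGAP5 did not pass without high-dose replicate 3 (-0.19). CCNB1, MKI67, PLK1, CDC20 and CENPF were not called against vehicle (-0.12, -0.18, -0.07, -0.12 and -0.26).

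At the medium against the low dose, 0 of the 37 genes passed with Menthae Herba, Saposhnikoviae Radix, Saengmaek-san, Guibi-tang or Soyo-san by edgeR or by the DESeq2 Wald test. Over all tested genes edgeR called 0.109% lower and 0.0652% higher with Menthae Herba, 0% and 0.0109% with Soyo-san, and 0% in both directions with the other 3. Unadjusted edgeR p-values under 0.05 were found for 3 of the 37 with Menthae Herba, against 1276 of all 18396 tested genes. They were found for 0 with each of the other 4. Over all tested genes these 4 had 319 (Saposhnikoviae Radix), 379 (Saengmaek-san), 434 (Guibi-tang) and 737 (Soyo-san). The 6 genes followed had log2 fold changes of -0.14 (PLK1 with Soyo-san) to 0.16 (MKI67 with Menthae Herba) there. Between extracts of 1 library set at 500 µg/mL, Menthae Herba differed from Saposhnikoviae Radix in 5 genes, with CENPE (-0.52), MKI67 (-0.42) and AURKA (-0.22) lower and CCNB2 (0.16) and KIF2C (0.18) higher with Menthae Herba, against 9.90% of all tested genes lower and 6.27% higher. Both counts were near the shares over all genes. Each of the 5 was lost in at least 1 fit without a library: CENPE without Menthae Herba replicate 3 (-0.40), MKI67 without Menthae Herba replicate 1 (-0.39) or Saposhnikoviae Radix replicate 2 (-0.30), AURKA without the same 2 libraries (-0.19 and -0.18), and CCNB2 and KIF2C without 4 and 6 libraries. CCNB1 (0.19), PLK1 (-0.27), CDC20 (0.08), CENPF (-0.24) and TOP2A (0.06) were not called. Guibi-tang differed from Saengmaek-san in 3, with PTTG1 (-0.42), NUSAP1 (-0.38) and BUB1 (-0.24) lower with Guibi-tang, against 1.57% of all tested genes lower and 0.636% higher. The last count was 0 without Saengmaek-san high-dose replicate 1, whose CCNB1 value is given above, 10 without its replicate 2, and 5 and 1 without Guibi-tang replicates 3 and 1. Without Saengmaek-san replicate 1, PTTG1, NUSAP1 and BUB1 were at -0.29, -0.27 and -0.19. Class was not balanced here: Saengmaek-san high-dose replicates 1 and 3 were of class 2, and of Guibi-tang only replicate 3. PTTG1, NUSAP1 and BUB1 were higher in class 2 than in class 1 within groups, by 0.20, 0.19 and 0.10 (log2). With class as a covariate the count was 6 lower. CCNB1 (0.02), MKI67 (-0.36), PLK1 (-0.24), CDC20 (-0.14), CENPF (-0.10) and TOP2A (-0.15) were not called.

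Okbyeongpung-san, with 1 library at each dose, was left out of the fit and was not tested. At 20 µg/mL 1 of the 37 genes lay more than 0.5 (log2) below the vehicle mean and outside the vehicle range, ASPM at -0.54, against 6.30% of all tested genes lower and 7.30% higher. At 100 µg/mL there were 0 such genes, against 7.02% lower and 8.93% higher, and at 500 µg/mL 0, against 6.17% lower and 7.23% higher. The median log2 ratios to vehicle were -0.08, -0.06 and -0.16. TOP2A stood at 870.4, 928 and 858 CPM at the low, medium and high dose, against 1029.5, 1014 and 1051 CPM in vehicle, and MKI67 at 771, 815 and 752 CPM, against 820.1, 834 and 857 CPM. All 3 values of both genes lay below the vehicle range, by less than the fold used here.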

How the data were processed

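RNA sequencing of 60 libraries of A549 cells is held in a deposited table of expected counts per Ensembl gene (60675 IDs), made by the authors with STAR 2.7.3a and RSEM 1.3.3 after FastQC 0.11.9 and Trim Galore 0.6.5 on GRCh38/hg38, per the submitters' processing notes. The sources used here do not give the annotation release or the strand setting of the counting, so reads of overlapping antisense genes may not be told apart. Every count column was used (0 unused columns). Symbols came from a gene name table and GENCODE 29 (57055 of 60675 IDs).

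The expected counts were rounded. edgeR 4.0.16 (R 4.3.3, limma 3.58.1; TMM, filterByExpr) fitted 57 libraries in 22 groups, 18396 genes and 35 residual degrees of freedom. The two-sided quasi-likelihood F-test with Benjamini-Hochberg adjustment over all tested genes was used in each of 24 comparisons, with a threshold of 0.05. These were 7 extracts at the high dose against vehicle, the high and the medium against the low dose in each, and 3 differences between extracts of a library set. Errors of log2 fold changes are standard errors (the absolute log2 fold change over the square root of F), and CPM were TMM-scaled. For Okbyeongpung-san the log2 ratio of each library to the vehicle mean was taken (prior count 2). Library totals limit precision through counting error only in genes of low counts.

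Alternatives were DESeq2 1.42.0 (Wald test) and its size factors, no filter, only the libraries compared, library class as a covariate or within a class, a replicate block, and leaving out each library. Replicate numbers were checked by the correlation of deviations from group means. All correlations of a comparison exceeded 0.1 in the medium against low dose of Guibi-tang (0.14 to 0.45) and Saengmaek-san (0.25 to 0.51), with 3 pairs each. In both extracts replicate 3 was the class 2 library at both doses. No pair of libraries was a duplicate: the smallest chi-square per degree of freedom between replicates was 2.31. The fit was also run on simulated counts drawn with its own shared spread. They cannot show how the test behaves for groups whose libraries differ more than that.

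The 37 genes, the pathway lists and the comparisons were chosen with earlier results of these data known. In each comparison the text names the 4 genes with the largest and the 2 with the smallest log2 fold change past the threshold and those against the majority (all, where 5 or fewer passed), and follows CCNB1, MKI67, PLK1, CDC20, CENPF and TOP2A. The rule gave these 6 per library in every comparison, whereas outside the high against the low dose of Polygalae Radix and Aucklandiae Radix most of them are given as log2 fold changes or ranges. Of each pathway list it names the 2 largest, with CDKN1A, MYBL2 and CDKN2A. Every other gene named was chosen after its values were seen. Promoter sequences are from RefSeq (GRCh38.p14). AURKA, BIRC5, FOXM1, TPX2, TTK and UBE2C were not matched there.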

Additional observations from a re-analysis of the deposited data

How the results depend on the processing

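The counts with Aucklandiae Radix and with Polygalae Radix at the high dose kept their direction under every setting that gave a value: without 1 library at a time, 35 to 37 were lower with Aucklandiae Radix against the low dose and against vehicle, and with Polygalae Radix 27 to 29 were lower and 1 to 2 higher against the low dose (2 without high-dose replicate 3) and 28 to 29 lower and 0 to 1 higher against vehicle. With class as a covariate and within class 2 the last comparison had 1 higher. For Polygalae Radix minus Aucklandiae Radix the ranges were 9 to 10 lower and 10 to 14 higher. When only the libraries compared were fitted, Polygalae Radix had 25 lower and 1 higher against its low dose. Its difference from Aucklandiae Radix then had 8 lower and 10 higher. In the fits within a class, a single library remained in an arm for Polygalae Radix at the high and medium doses and for Guibi-tang in class 2 at every dose. The same held for Saengmaek-san in class 1 at the high and in class 2 at the low and medium doses, and for Saposhnikoviae Radix in class 2 at the high dose. Such a library was assumed to vary like the other groups.

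Smaller counts moved. With class as a covariate there were 8 lower (Menthae Herba against vehicle), 1 lower (Saposhnikoviae Radix against vehicle), 6 lower and 2 higher (Saengmaek-san against vehicle), 2 higher (Soyo-san against vehicle), 2 lower and 8 higher (Menthae Herba, high against low, also within class 1), 9 lower (Guibi-tang, high against low), 4 lower (Soyo-san, high against low, also within class 2), 15 lower (Polygalae Radix, medium against low), 5 lower and 6 higher (Menthae Herba minus Saposhnikoviae Radix) and 6 lower (Guibi-tang minus Saengmaek-san). Without the filter on low counts the values were 2 higher and 1 lower for Menthae Herba and Saposhnikoviae Radix against vehicle, 1 higher for Saengmaek-san against vehicle, 0 higher for Menthae Herba and 0 and 2 lower for Guibi-tang and Soyo-san at high against low, and 5 lower and 1 higher for Menthae Herba minus Saposhnikoviae Radix. With only the libraries compared they were 8 higher for Menthae Herba, 0 lower for Saengmaek-san and 2 higher for Soyo-san against vehicle, 0 lower for Guibi-tang and Soyo-san at high against low, 0 lower and 0 higher for Polygalae Radix at medium against low, and 0 lower for Guibi-tang minus Saengmaek-san. The DESeq2 Wald test gave 1 higher for Saengmaek-san against vehicle, 5 higher for Menthae Herba, 8 lower for Guibi-tang and 2 lower for Soyo-san at high against low, and 4 higher for Polygalae Radix at medium against low. Within class 2 there were 2 higher for Saengmaek-san and 2 higher for Soyo-san against vehicle, and within class 1 there were 7 lower for Guibi-tang at high against low. Where 1 library was left in an arm, the median log2 fold change of the 37 genes is given. Within class 2 it was -0.11 for Guibi-tang against vehicle and -0.12 for Guibi-tang at high against low. It was -0.10 (class 1) and -0.07 (class 2) for Guibi-tang minus Saengmaek-san. For Polygalae Radix at medium against low it was -0.14 within class 1. The causes were not tested.

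With the replicate block Saengmaek-san had 1 higher against vehicle and Soyo-san 2 lower at high against low. The block changed no other count by over 1.5 times and left 0 calls in the 2 comparisons where the numbers paired the libraries. It gave each replicate number the same effect in all groups, so it could not fit a pairing particular to a library set. Leaving out 1 library gave 8 to 12 lower and 2 to 4 higher for Menthae Herba against vehicle (8 without its replicate 1, 9 without its replicate 3 or vehicle replicate 3), 0 to 5 lower and 0 to 1 higher for Saengmaek-san, 10 to 19 lower for Guibi-tang and 13 to 18 lower for Soyo-san against vehicle. At high against low it gave 1 to 5 higher for Menthae Herba (5 without high-dose replicate 1), 1 to 5 lower for Guibi-tang and 0 for Soyo-san. It gave 3 to 9 lower and 0 to 4 higher for Polygalae Radix at medium against low (4 higher without medium-dose replicate 3), 1 to 4 lower and 0 to 1 higher for Menthae Herba minus Saposhnikoviae Radix, and 0 to 10 lower for Guibi-tang minus Saengmaek-san. E2F letters were found in 4 genes in the narrower promoter window. No value changed its sign with a call, and DESeq2 size factors moved the median of all genes by at most 0.013.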
